A study of Mus musculus with 4 samples.

Results

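The distal part of mouse chromosome 8 from the start of Usp10 to the end of Galnt2 held a dense run of regions whose H3K9 acetylation was called different between 2 choline levels. The members were chosen by position: they are the regions with a midpoint inside the annotated span of the readthrough gene Gm20388 on chromosome 8 of mm10. Of the 45855 regions in the list, 437 met that rule. The density of regions in this list was the reason the span was picked out, so its counts and densities are given as a description and without a test. The nearest region before the span (chr8:119896367-119896542, score 21.4) and the first one inside it (chr8:119914725-119914878, score 4.61) lay on either side of the proximal end. At the distal end the last region inside was chr8:124338858-124339058 (score 9.37), and the first one outside was chr8:124345973-124346138 (score 20.5).

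The regions come from HT22 cells, an immortalised line of mouse hippocampal neurons, cultured in high-glucose medium with fetal bovine serum. Control cells had choline chloride at 5 µM and supplemented cells at 70 µM, both for 48 h. The series has 4 libraries, 2 of input DNA and 2 of DNA immunoprecipitated for H3K9ac, and the labels do not say which choline level each had. There was thus at most 1 immunoprecipitated library per level, no replicate check of any region, and an unknown depth. The authors' list holds regions that their comparison gave to 1 of the levels, and it is read here as 5 µM for the first condition and 70 µM for the second from the order of the levels in its name. Each region has a score, the authors' own value, in a column without a name. MACS2, the program that made the comparison, writes a log10 likelihood ratio in such a column, so a higher score stands for a clearer difference between the 2 libraries. The commonest exact score, 19.00731, was shared by 2552 regions of the list (5.57%), 13 of them in the span (2.97% of its regions). The source of these ties was not tested. As a check of the cell type, 4 of 10 markers of mature neurons, 1 of 5 of microglia and leukocytes, 2 of 4 of astrocytes and 5 of 6 of fibroblasts and mesenchyme had a listed region within 1 kb of a transcript start, where the share over all protein-coding genes was 39.5 percent. A listed region shows a difference between libraries and not expression, so these counts do not settle the cell type.

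H3K9ac is the acetylation of lysine 9 of histone H3, placed by acetyltransferases and removed by deacetylases. It is found at the promoters of active genes, just beside the start site, and at active enhancers, many of which lie in introns or between genes. A readthrough gene is annotated where transcripts run from one gene into others. Its introns can cover many unrelated genes, so Gm20388 was left out of the annotation when regions were placed in exons, introns or intergenic sequence. Gene-rich chromosome bands tend to be rich in G, C and the CpG dinucleotide, and CpG-rich promoters are the usual kind at broadly used genes.

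Sequences show the contrast between the kinds of site that made up the span. They are the strongest start-site regions of the 6 genes with the most regions among those that had one, up to 300 bases around the middle of each, from RefSeq GRCm38.p6, plus strand. Capitals mark matches on either strand to any of 8 motifs: the CRE (TGACGTCA), the Sp1 box (GGGCGG), the ETS motif (CCGGAAG), the NRF1 core (CGCATGCG), the CCAAT box (CCAAT), the E-box (CACGTG), the AP-1 motif (TGANTCA) and the glucocorticoid response element core (ACANNNTGT).
Banp, chr8:121950955-121951097: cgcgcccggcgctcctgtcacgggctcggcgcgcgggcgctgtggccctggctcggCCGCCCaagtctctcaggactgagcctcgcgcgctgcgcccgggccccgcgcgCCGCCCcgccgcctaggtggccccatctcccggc
Zfpm1, chr8:122282450-122282749: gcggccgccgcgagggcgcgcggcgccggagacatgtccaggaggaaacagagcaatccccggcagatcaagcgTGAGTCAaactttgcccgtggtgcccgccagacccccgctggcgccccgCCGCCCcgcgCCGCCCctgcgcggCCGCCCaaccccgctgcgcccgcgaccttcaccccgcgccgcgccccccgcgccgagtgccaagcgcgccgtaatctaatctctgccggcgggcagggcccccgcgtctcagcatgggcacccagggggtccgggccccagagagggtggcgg
Zcchc14, chr8:121653890-121654189: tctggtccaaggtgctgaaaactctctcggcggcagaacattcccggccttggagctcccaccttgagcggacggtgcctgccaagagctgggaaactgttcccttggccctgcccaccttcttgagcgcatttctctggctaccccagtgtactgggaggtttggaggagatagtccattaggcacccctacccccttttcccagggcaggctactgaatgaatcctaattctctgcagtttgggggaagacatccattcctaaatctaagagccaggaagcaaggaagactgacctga
Gse1, chr8:120571941-120572240: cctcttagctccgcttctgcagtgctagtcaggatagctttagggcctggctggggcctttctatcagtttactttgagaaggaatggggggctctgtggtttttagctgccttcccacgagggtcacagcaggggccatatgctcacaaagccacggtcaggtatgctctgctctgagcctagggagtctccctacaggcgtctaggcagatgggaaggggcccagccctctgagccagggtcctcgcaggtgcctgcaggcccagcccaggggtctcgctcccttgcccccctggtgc
Ankrd11, chr8:122916915-122917114: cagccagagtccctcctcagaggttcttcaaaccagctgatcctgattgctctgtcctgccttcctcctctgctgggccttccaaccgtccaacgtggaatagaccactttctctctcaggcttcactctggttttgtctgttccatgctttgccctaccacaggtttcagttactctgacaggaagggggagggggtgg
Piezo1, chr8:122482909-122483045: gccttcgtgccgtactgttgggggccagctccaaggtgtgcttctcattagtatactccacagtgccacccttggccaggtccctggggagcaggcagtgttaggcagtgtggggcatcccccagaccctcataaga
The Banp and Zfpm1 sequences were CpG-rich, with 81.8% and 76.7% G or C and 24 and 43 CpG, and held 2 and 3 Sp1 boxes, read here as CCGCCC. Zfpm1 also held 1 AP-1 match. The sequence at Zcchc14 had 55.0% G or C and 6 CpG, and its region lay 1138 bp upstream of the gene's most upstream start. The sequence at Banp was 1276 bp downstream of the most upstream start, at a later annotated start. Those at Gse1, Ankrd11 and Piezo1 came from starts deep inside the genes, with 6, 2 and 2 CpG and no motif match.

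The 2 regions with the highest scores in the span were of another kind, away from coding genes. The first (score 29.0) lay 8850.5 bp from the start of Acta1, beyond that gene's 3′ end. The other (score 28.2) lay in an array of 5S ribosomal RNA genes. Neither held a match to any of the 8 motifs. They were chosen for display after their scores were seen.
Beyond Acta1, chr8:123885791-123886010: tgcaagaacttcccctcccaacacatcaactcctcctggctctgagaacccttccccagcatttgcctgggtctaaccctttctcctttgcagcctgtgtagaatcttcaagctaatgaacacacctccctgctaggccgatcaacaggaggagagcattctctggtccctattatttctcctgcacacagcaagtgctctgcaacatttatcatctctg
5S array, chr8:123614252-123614451: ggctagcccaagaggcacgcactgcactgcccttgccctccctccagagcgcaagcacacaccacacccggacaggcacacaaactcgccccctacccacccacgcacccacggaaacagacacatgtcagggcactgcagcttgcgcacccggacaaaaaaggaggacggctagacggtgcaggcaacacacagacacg
The sequence beyond Acta1 had 50% G or C and 1 CpG, and the one in the array had 63% and 11.

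The span covered 4.43 Mb, 3.43% of the length of chromosome 8, and held 17.7% of the chromosome's regions and 7.03% of its protein-coding genes. Its density was 98.5 regions per Mb, against 16.3 per Mb on the rest of chromosome 8 (2031 regions), a ratio of 6.06, and 16.7 per Mb on the other chromosomes, a ratio of 5.90. Of the 437 regions, 429 were assigned to 70 µM and 8 to 5 µM. By median width and median score over all classes, the regions were near those elsewhere. Their median width was 176 bp (169 bp on the rest of the chromosome) and their median score 6.39 (6.56 there). By class the scores differed in direction. Medians were lower in the span for intergenic regions (6.29 against 9.26) and intronic ones (7.20 against 8.36). They were higher for exon regions (8.58 against 6.98), and start-site regions were alike (5.21 against 5.00).

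The dense stretch did not end with the rule. In 500 kb steps, the 8 whole steps inside the span held 35 to 64 regions, with a median of 50. The step just before the span held 48 regions and 14 protein-coding genes, and the one before that held 9 regions and 2 genes. On the distal side, the step across the end held 51 regions and the next 44, and the numbers then fell, with 1 further step of 50 regions and 3 genes. Over a full block of the span's length on the proximal side the density was 29.3 per Mb, and from the span to the chromosome end it was 35.6 per Mb.

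**Figure D1:**
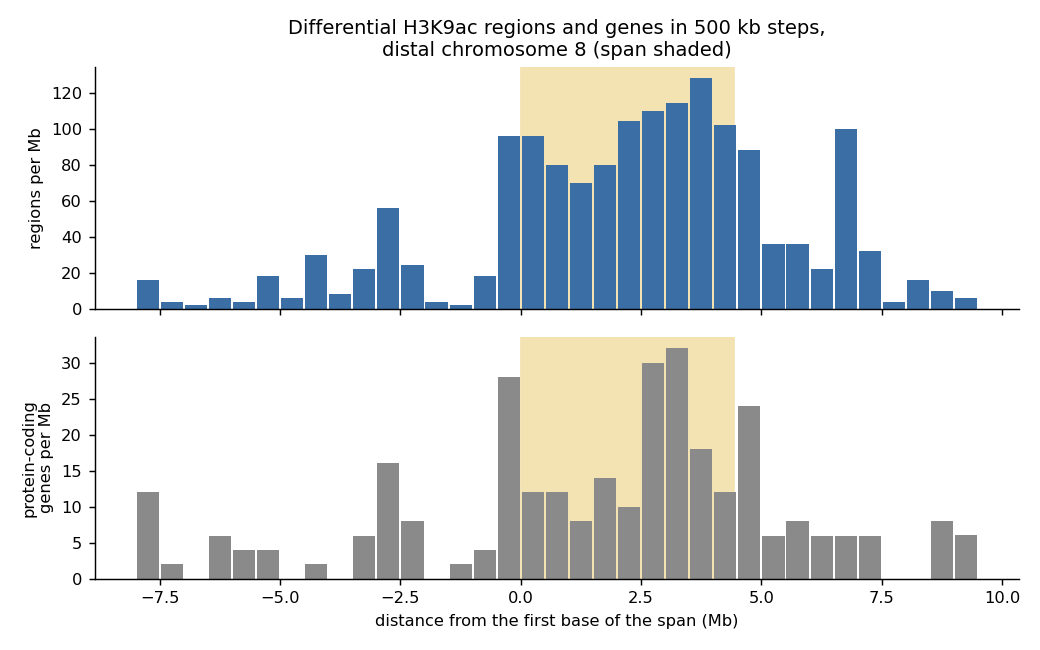
Regions per Mb (top) and protein-coding genes per Mb (bottom) in steps of 500 kb along distal chromosome 8, by distance in Mb from the first base of the span, which is shaded. The bars inside the span stand for 35 to 64 regions per step, and the step of 48 regions just before it is as tall as those inside.

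Among 587 blocks of this length over all chromosomes, the span ranked 4 in regions per Mb, 1 in CpG per kb, 72 in protein-coding genes per Mb and 31 in regions per gene. On chromosome 8 the blocks were laid out to fit the span, and on the others from the first base. Dense stretches elsewhere could be split between blocks, so the ranks may favour the span. The denser blocks were a pair on chromosome 15 (138 and 112 per Mb) and one on chromosome 11 (109 per Mb), and each had more genes than the span (151, 133 and 105 against 73). Within chromosome 8, the other 27 blocks reached 40.1 regions per Mb at most, with a median of 14.4. The comparison with chromosome 8 alone therefore shows a larger gap than the comparison with gene-rich blocks of other chromosomes.

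**Figure D2:**
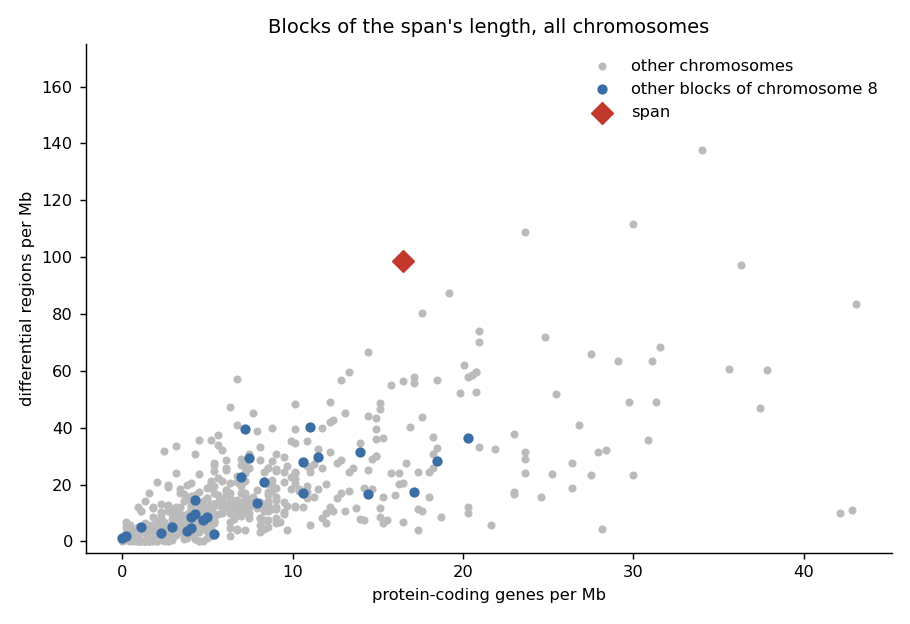
Differential regions per Mb against protein-coding genes per Mb for 587 blocks of the span's length, with the other blocks of chromosome 8 in blue, those of other chromosomes in grey and the span as a red diamond. The span lies at 98.5 regions and 16.5 genes per Mb, above the blocks of like gene density.

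Gene density was higher as well, by a smaller ratio. The span had 16.5 protein-coding genes per Mb against 7.73 on the rest of chromosome 8, a ratio of 2.13, while regions per gene were 5.99 against 2.10, a ratio of 2.85. Base composition moved in the same direction: G and C made up 51.1% of the span against 42.0%, there were 17.2 CpG per kb against 8.73, and repeats covered 24.1% against 32.6%. Per 1000 CpG, the span still held 5.71 regions against 1.92, a ratio of 2.98. The part of base composition or of the library preparation in the density was not tested.

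Start-site regions made up a smaller share of the span's regions than on the rest of chromosome 8. Of the 437 regions, 80 (18.3%, exact 95% binomial interval 14.8 to 22.3%) overlapped the 1 kb either side of a protein-coding transcript start, against 28.2% (26.3 to 30.2%) on the rest of the chromosome and 29.0% in the whole list. The flanks had smaller shares still, 15.4% in the block just before the span and 10.6% from the span to the chromosome end. Neighbouring regions are not independent, so these intervals cover counting only and are too narrow. By midpoint, 74 regions (16.9%) were in such windows, 38 (8.70%) in exons, 185 (42.3%, 37.7 to 47.1%) in introns and 140 (32%, 27.7 to 36.6%) between genes. The intron share was near that of the rest of chromosome 8 (42.5%), and the intergenic share was above it (23%).

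The classes take up different amounts of sequence, so the density was also computed within each class. Start-site windows held 204 regions per Mb of window against 134 on the rest of the chromosome, a ratio of 1.52. Exons held 126 against 34.2 per Mb, a ratio of 3.69. Introns held 93.7 against 17.0 per Mb, a ratio of 5.51, and intergenic sequence 77.9 against 7.56 per Mb, a ratio of 10.3. The ratio thus grew from start sites to intergenic sequence. At the class densities of the rest of chromosome 8 the span would hold 106 regions, so the mix of classes left a ratio of 4.11.

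**Figure D3:**
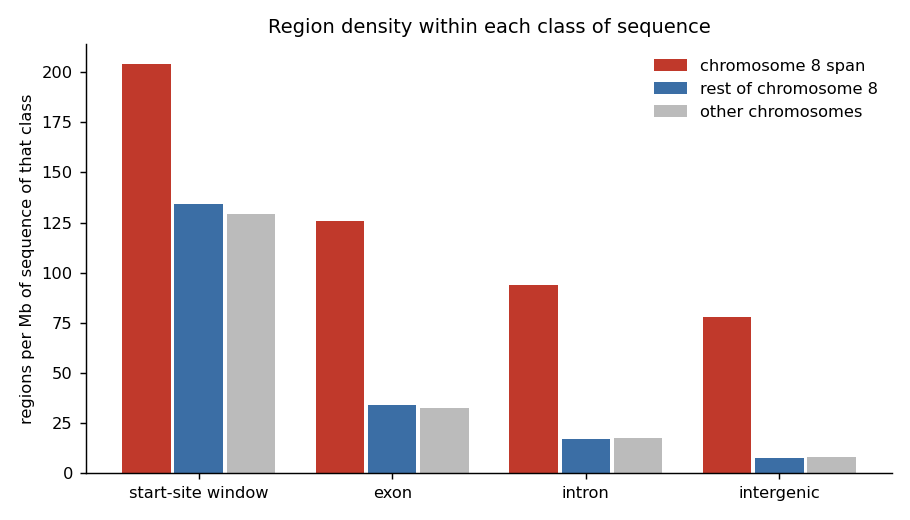
Regions per Mb of start-site window, exon, intron and intergenic sequence in the span (red), on the rest of chromosome 8 (blue) and on the other chromosomes (grey), as bars from 0. The red bars fall from 204 at start-site windows to 77.9 in intergenic sequence, while the blue bars fall from 134 to 7.56.

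Regions were spread over the whole span. Each of the 44 full 100 kb bins held a region, from 2 to 22 with a median of 9. The 11 bins without the start of a protein-coding gene had a median of 5, the 23 with 1 or 2 starts a median of 11, and the 10 with 3 or more a median of 11.5. Across these bins the Pearson correlation of region number was 0.40 with gene starts and 0.57 with CpG per kb. Both describe adjacent bins of the same libraries. The bin with most of the 5S ribosomal RNA genes had 44.9 CpG per kb and 22 regions, where no other full bin passed 22.9 CpG per kb. The correlation without that bin was not computed. The median gap between neighbouring regions was 5.96 kb, against 11.5 kb on the rest of the chromosome. Joined at gaps of up to 1 kb, the regions formed 360 groups, of which 304 were single regions and the largest held 4.

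The longest stretch without a region, 79.3 kb, lay between Cox4i1, which encodes a cytochrome c oxidase subunit, and Foxf1, which encodes a forkhead factor of mesenchyme. It contained the whole of Irf8, a myeloid and B-cell transcription factor. The next, 77.1 kb, lay between Banp and Zfpm1, and the third, 72.8 kb, between Foxl1 and 1700018B08Rik. The densest 100 kb bin (22 regions) held most of the 5S ribosomal RNA genes and the starts of Dbndd1 and Gas8. A bin of 20 regions ran from the 5′ part of Piezo1 over Cdt1 and Aprt to Galns. Bins of 17 regions covered the stretch from the 5′ end of Fanca to Mc1r and the first part of Galnt2.

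**Figure D4:**
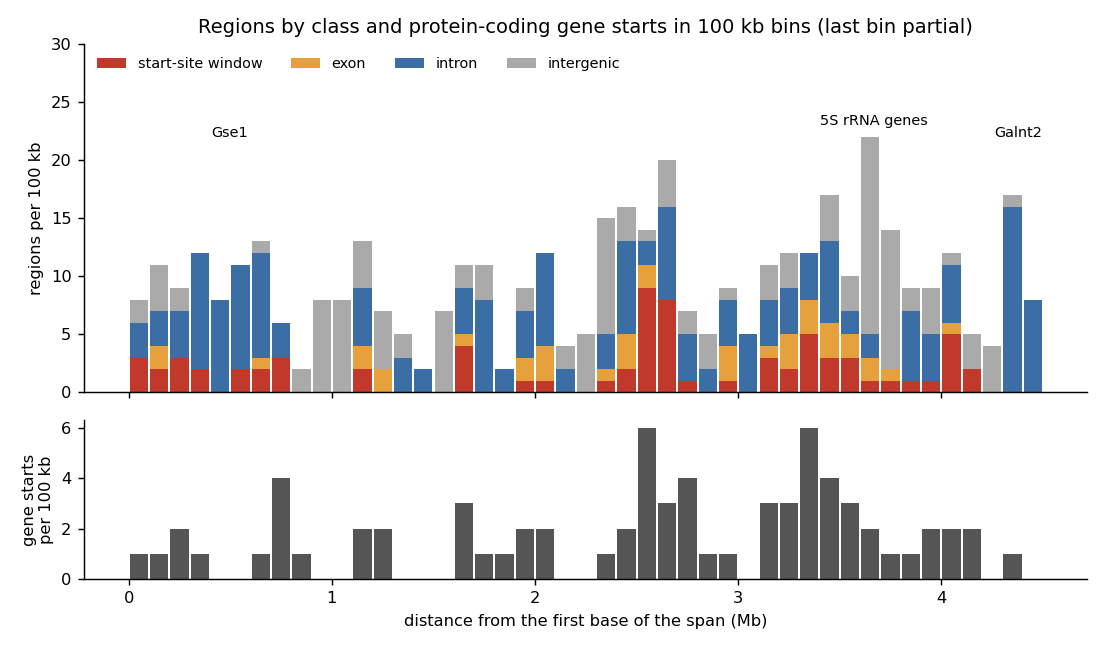
Regions per 100 kb bin along the span, stacked by class (top), and protein-coding gene starts per bin (bottom), by distance from the first base of the span in Mb. The tallest bar (22 regions) is at the 5S ribosomal RNA genes and is mostly intergenic, and the bars over Gse1 and Galnt2 are mostly intronic.

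The 5S ribosomal RNA is the small RNA of the large ribosomal subunit that is made by RNA polymerase III from tandem repeats. The build holds 51 annotated 5S genes here in 85.0 kb (chr8:123538786-123623745), and 21 regions lay among them, 1 of them assigned to 5 µM. Only 3 of the 21 overlapped a 5S gene, and 18 lay in the spacers between genes. Scores ran from 3.41 to 28.2 with a median of 5.13. In all 21 regions, each 32-base word was found more than once in the build. The median word of a region had 46 to 51 copies, and 4 regions held words with many more. Among the other 416 regions of the span, 63 (15.1%) held any repeated word and 2 consisted of them. The sources used here do not say how Bowtie placed reads with several matches, and these 21 positions cannot be told apart from other copies of the repeat. Without the array the span held 95.6 regions per Mb.

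Of the 73 protein-coding genes with a midpoint in the span, 49 (67.1%, exact 95% binomial interval 55.1 to 77.7%) had a region within 1 kb of a start, here called marked genes. The share was 41.2 percent on the rest of chromosome 8 (398 of 966) and 39.5 percent over all protein-coding genes. In the denser blocks named above it was 69.5% on chromosome 11, and 62.3% and 48.9% on chromosome 15. Among the 12 blocks of this length with the most regions, the span included, it ran from 42.9% to 71.8%. A further 16 genes of the span had a region elsewhere in the gene body. The 8 genes with none were Irf8, Foxl1, Car5a, Il17c, Pabpn1l, Cdh15, Dpep1 and Acta1, 11.0% of the genes, against 42.0% on the rest of chromosome 8. Among these, Irf8, Il17c, Cdh15 and Acta1 are genes of leukocytes, epithelial defence or skeletal muscle, while Mc1r, of pigment cells, was marked. Il17c, Foxl1, Acta1 and Pabpn1l were also short, at 1.62 to 3.27 kb, where the median gene of the span had 18.1 kb. Neither trait was tested. The median gene had 3 regions in its body or within 1 kb, against 1 on the rest of the chromosome.

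The 80 start-site regions did not all sit at main promoters. At the most upstream start of a gene there were 47, with a median score of 5.03, and 33 were found only at another annotated start, with a median of 6.35. Of the 14 start-site regions that scored 10 or more, 4 were at a most upstream start. Counting only that start, 40 genes were marked (54.8%), against 34.6% on the rest of the chromosome. Within 5 kb of the most upstream starts there were 78 regions downstream and 50 upstream, and 6 of these lay within 150 bp of the start. Shared promoters took part: 12 start-site regions lay within 1 kb of the starts of 2 or more genes, such as the pairs Rnf166 and Ctu2, Taf5l and Urb2, and Galns and Trappc2l. Those genes are not independent counts.

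The 10 genes with the most regions held 130 of them, 29.7% of the span. Region number rose with gene length over the 73 genes of this 1 list (Pearson 0.88, Spearman 0.52, as a description), with short genes such as Cdt1 (5.54 kb) and Rnf166 (9.92 kb) among the 12 that had 6 or more. Gse1, which encodes a subunit of a histone deacetylase and demethylase corepressor complex, had 37 in 352.9 kb: 29 in introns, 7 at annotated starts and 1 beyond its end. Its start-site regions reached a score of 12.9 and its intronic ones 24.4. Per 10 kb, Gse1 had 1.04 regions, close to the median of the span's genes (1.19).

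Galnt2, an enzyme that begins mucin-type O-glycosylation, stood out in a different way. It had 24 regions in 114.3 kb, or 2.06 per 10 kb, and all 24 were intronic with none within 1 kb of a start. Of these, 10 (41.7%) scored 10 or more, up to 25.4, and they were strewn from near the gene's start to its 3′ part. The median score of the 24 was 7.69, near the 7.20 of all intronic regions of the span. Galnt2 thus stood out by number and place of its regions and not by their scores. The 100 kb bin over its first part held 17 regions and 1 gene start.

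Banp, a nuclear protein that binds CGCG-containing promoters, and Ankrd11, a chromatin regulator, had 12 regions each. In Banp 1 was at a start (score 3.78, the CpG-rich sequence above) and 10 were intronic, and in Ankrd11 3 were at starts, 3 in exons and 6 in introns, among them the region of score 26.9 that ranked among the 5 strongest of the span. Zcchc14, a zinc-finger protein, and Zfpm1, a cofactor of GATA factors, had 9 each. In Zcchc14 all 9 were intronic, and its start-site region lay just outside the gene, while in Zfpm1 1 of the 9 was at a start. Piezo1, a mechanically gated cation channel, had 8, and its start-site region (score 19.0) was at an internal start. Nup133, a scaffold protein of the nuclear pore, had 7, of which 4 were at starts. Zc3h18, which links the cap-binding complex to RNA decay, Rnf166, an E3 ubiquitin ligase, Cdt1, which licenses replication origins, and Spire2, an actin nucleator, had 6 each. Cdt1 was the most packed of these, with 7.96 regions per 10 kb and 5 of its 6 at a start, and Rnf166 had 5.03 per 10 kb and also 5 at a start.

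**Figure D5:**
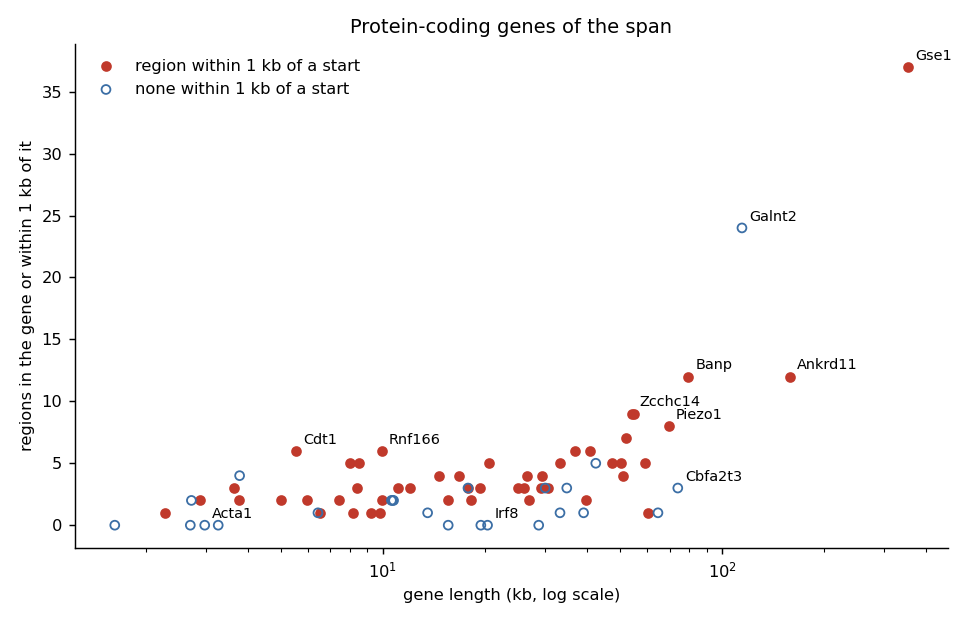
Number of regions in each of the 73 protein-coding genes or within 1 kb of it against gene length in kb on a log axis, filled red where a region lay within 1 kb of a start and open blue where none did. Gse1 (37) and Galnt2 (24) lie above the rest, and Galnt2 is the open circle with the most regions.

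By function, the lists are read against the 67.1% of all genes in the span that were marked, and with 4 to 15 genes each their shares are coarse. Genes of replication, repair and cell division were marked in 6 of 7 cases (85.7%, 29 regions). Fbxo31, an F-box protein of a ubiquitin ligase, had a start-site region with a score of 22.4. Fanca, of the Fanconi anaemia core complex, had one of 19.0, the list's commonest exact score. The scores were 10.5 for Cdt1 and 7.62 for Usp10, a deubiquitinase. In each of these genes that region lay at an internal start and not at the most upstream one. Gins2, of the replicative helicase, was the unmarked one, with 2 regions in its body.

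All 7 genes of membrane trafficking and autophagy were marked (24 regions), against 67.1% of the span's genes. Zdhhc7, a palmitoyltransferase of the Golgi, had the highest score (23.1, at an internal start). Of the 150 words of that region, 147 were repeated in the build, and the median word had 5.5 copies. How Bowtie placed reads with several matches is not given, so this score may not belong to the Zdhhc7 position alone. Next was Trappc2l, a subunit of the TRAPP tethering complex, with 9.09 in a region that it shares with Galns. The scores were 7.59 at Rnf166, at an internal start, and 5.32 at Map1lc3b, the LC3B protein of autophagosomes. Of translation and RNA genes 5 of 6 were marked (83.3%, 25 regions), and Klhdc4 was unmarked with 1 region. Nup133 (13.6), Urb2, a ribosome biogenesis factor (8.0), Rpl13, a ribosomal protein (6.35), and Zcchc14 (5.83) led. The Nup133 and Rpl13 regions lay at internal starts.

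Transcription factors and chromatin regulators were marked in 9 of 14 cases (92 regions, 37 of them in Gse1), a share of 64.3% that was close to that of all genes in the span. Gse1 (12.9), the repressor Snai3 (12.7), Ankrd11 (9.38) and Taf5l, a subunit of the SAGA acetyltransferase complex (8.0), had the highest start-site scores. The Gse1 and Ankrd11 regions lay at internal starts. The corepressor gene Cbfa2t3 (3 regions) and the forkhead genes Foxc2 (2 regions) and Foxl1 (none) had no region at a start. Their neighbour Foxf1 did, with a score of 3.53.

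Mitochondrial and metabolic enzymes were marked in 10 of 15 cases (61 regions, 24 of them in Galnt2), or 66.7%, the level of the span as a whole. The start-site scores were 21.6 at Galns, a lysosomal sulfatase, and 15.3 at Afg3l1, a mitochondrial protease subunit, both at internal starts. At the most upstream start they were 6.17 at Abcb10, a transporter of the inner mitochondrial membrane, and 5.82 at Aprt, which salvages adenine. Acsf3, a mitochondrial malonyl-CoA synthetase, was unmarked with 5 regions, and Car5a and Dpep1 had none. Slc7a5, the large neutral amino acid transporter, had the widest region of the span, 441 bp over a start with a score of 4.71. The next in width were 410 bp at Gse1, 382 bp at Zfpm1, 372 bp in an intron of 6430548M08Rik and 368 bp between Banp and Zfpm1.

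Genes of cytoskeleton, adhesion and excitability were marked in 5 of 10 cases (50%, against 67.1% in the span; 28 regions) and included tissue-restricted genes. Piezo1 (19.0, the list's commonest exact score), Spire2 (7.76) and Ccsap, a centriole and spindle protein (5.81), led. The Piezo1 and Ccsap regions lay at internal starts. Skeletal muscle actin (Acta1) and the muscle cadherin gene Cdh15 had no region, and Cpne7, a copine, had 3 away from its starts. Tubb3, the neuronal tubulin, had 2 regions and none within 1 kb of its own starts. One of the 2 lay beyond its 3′ end and within 1 kb of a start of the neighbouring Def8. Of the 4 immune and pigment signalling genes 2 were marked. They were Mc1r, the melanocortin receptor of pigment cells (9.94), and Crispld2, a secreted protein (4.11, at an internal start). The lists were drawn up from the genes of the span, and the gaps between their shares were not tested.

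Beside the protein-coding genes, the span had 85 annotated noncoding genes and pseudogenes other than the 5S genes, and 24 of them (28.2%) had a region within 1 kb of their start, against 8.22 percent of such genes on the rest of chromosome 8 and 7.99 percent in the whole annotation. For 11 of the 24 each such region was also within 1 kb of a protein-coding start and cannot be assigned to either gene, while 13 had a region at no coding start. Fendrr, the long noncoding RNA transcribed away from Foxf1, had 1 region at its start, which is the region at the Foxf1 start. Gm26812, 20625 bp from a coding start, had 2, both assigned to 5 µM. The bidirectional noncoding genes A130014A01Rik, Gm27011 and 2810013P06Rik each had 1, at 100, 40 and 189 bp from a coding start. Among 24 lincRNA genes 6 were marked, among 13 antisense genes 2, and among 9 miRNA genes 5, including Mir1967, which lies 753 bp from a coding start.

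The 8 regions assigned to 5 µM amounted to 1.83% of the span's regions (0.794 to 3.58%, exact 95% binomial interval), against 11 regions or 0.542% (0.271 to 0.967%) on the rest of chromosome 8. The whole list had 360 such regions of 45855, a share between these values. In density that was 1.80 against 0.0880 per Mb. Of the 587 blocks, the span held the most 5 µM regions, no other block held as many, and 361 held none. The reading of the conditions sets only the name of the level and not these counts.

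None of the 8 was within 1 kb of a protein-coding start, where 18.6% of the span's 70 µM regions were. With only 8 regions, this gap was not tested. The strongest (score 19.4) was in an intron of Banp, 1230 bp from the 70 µM region at the Banp start. One of score 14.6 lay in the noncoding gene A330074K22Rik, 3612.5 bp from a start of Gse1 and 2688 bp from a 70 µM region there. One of 11.1 was in an intron of Slc7a5, 1508 bp from that gene's 441 bp region. A pair of 5.67 and 5.84 lay in the noncoding gene Gm26812, upstream of Klhdc4, and was the farthest from any 70 µM region (18240 and 17616 bp). The others were in the 5S array (6.06), upstream of Ccsap (11.0), and beyond Acta1 (5.71), 514 bp from a 70 µM region. The gap to the nearest 70 µM region ran from 514 to 18240 bp with a median of 2098 bp, compared with a median of 1229 bp for the other 5 µM regions of the list.

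Motif content was read in the central 120 bases of each region, so that widths did not matter. The Sp1 box was in 13 of the 80 start-site regions (16.3%) and 17 of the 357 others (4.76%), against 14.5% and 2.74% on the rest of chromosome 8 and 14.0% and 2.76% in the whole list. The CRE was in 0 and 1, the AP-1 motif in 2 and 15 (2.50% and 4.20%; 2.16% and 3.84% in the whole list) and the glucocorticoid response element core in 1 and 13 (1.25% and 3.64%; 2.35% and 3.54%). The NRF1 core was in none of either kind, the ETS motif in 1 and 2, the CCAAT box in 11 and 42, and the E-box in 2 and 11. CpG was at 4.57 per 100 bases in the start-site regions, close to the 4.41 of such regions in the whole list, and at 1.93 in the others, above the 1.33 of the whole list. RefSeq promoters of 300 bases were found for 53 of the 73 genes (64 entries), and 71.9% of these held the Sp1 box, against 35.7% of all 32851 mouse promoters in the table. The annotated promoters were thus richer in the Sp1 box than promoters at large, while the start-site regions were near the list's own level.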

How the data were processed

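Per the submitters' processing notes, the reads were processed with CASAVA 1.8, Bowtie 1.0.0 and MACS2 on mm10, and per the series' design text the authors called peaks against input and compared the choline levels with bdgdiff. The score of each region is the authors' deposited value and was used only to describe and rank regions. The scaling between libraries and their depth are not given in the sources used here.

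Positions (counted from 1) were set against GENCODE M21 and RefSeq GRCm38.p6 on chromosomes 1 to 19, X and Y with Python 3.11.15, numpy 2.4.6, pandas 2.3.3, scipy 1.17.1 and pysam 0.24.0. Figures used matplotlib 3.10.9. A region was at a start when it overlapped by 1 bp the 1000 bp either side of any transcript start of a protein-coding gene. Classes were taken by midpoint, in the order start-site window, exon, intron, intergenic. Shares have Clopper-Pearson intervals. Words of 32 bases were sought on both strands of the build. The counting steps were tested on simulated regions.

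The members, gene lists and rules were chosen with earlier results of these data known. Named genes were the 10 with the most regions, up to 4 marked and 3 unmarked genes of each of the 7 lists, and those at the strongest, widest and 5 µM regions, the longest gaps and the densest bins. Tubb3 and the genes named for shared starts were added after their values were seen. Zfp469 is not annotated as protein-coding and was left out of its list. A gene that this rule takes is not reported here.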

Additional observations from a re-analysis of the deposited data

How the results depend on the processing

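Of 51 values under alternative settings, 33 were classed as the same as the reported value and 18 as moved. For ratios and shares the bound was the counting interval of the reported value. The number of regions was judged more loosely: 360 with near regions merged and 336 with the ends trimmed were classed as the same as 437. The density ratio was 5.22 per Mb of sequence outside repeats. With regions at or above the list's median score the span held 212, its start-site share was 11.8% and its marked genes 30.1% (14.9% and 14.8% on the rest of chromosome 8). Over all annotated genes the ratio of regions per gene was 2.40, the start-site share 26.5% and the marked share 44.0%, or 46.2% without the 5S genes, a setting chosen after seeing the data. With the most upstream start alone those shares were 10.8% and 54.8% (19.8% and 34.6% on the rest of the chromosome). Windows of 500 bp gave 11.4% and 53.4% (19.1% and 32.3%), and windows of 2500 bp 33.2% and 82.2% (40.5% and 49.6%). Where a value for the rest of the chromosome is given here, the span's marked share was above it and its start-site share below it. The intron share was 74.4% with the readthrough gene kept, 37.5% with 500 kb trimmed from both ends, 47.6% with windows of 500 bp and 33.4% with 2500 bp.

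No paired analysis was possible because the list has no values per library, and for the same reason no library was left out in turn. The list has only regions called different, so it does not show where H3K9ac was present at both levels. Depth and the scaling between libraries are unknown. The scores compare 1 library per level at most and carry no variation between cultures.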
